A study of Homo sapiens with 4 samples.

Results

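The BCL2 family of apoptosis regulators was followed through 10 of its genes, chosen by name and by having a locus on a chromosome of the hg19 assembly: BCL2, BCL2L1, MCL1, BAX, BAK1, BBC3, PMAIP1, BCL2L11, BIK and BMF. They are 10 of the 62077 rows of the expression table. A mean of at least 1 FPKM over the libraries was asked of a gene before its changes were set against those of other genes, and 9 of the 10 members, all but BCL2, were among the 15057 genes that met it. FPKM is the number of fragments scaled to exon length and to the number mapped, so levels are given per length.

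FaDu cells, an established line of squamous carcinoma cells of the hypopharynx, were infected with lentivirus carrying either a scrambled control hairpin (scr) or a hairpin against the mRNA of TET1 (TET1-si), a dioxygenase that oxidizes 5-methylcytosine in DNA. Both kinds of cells were kept in normoxia or in 1% oxygen for 19 h, which gave 1 RNA-Seq library each for scrambled cells (N-scr in normoxia, H-scr in hypoxia) and TET1-si cells (N-si, H-si). All 4 groups came from 1 cell line and had been through viral infection, and the study lists a single hairpin sequence against TET1. Depth recovered from the values was 22500000 to 24600000 reads.

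With 1 library a group no difference has a replicate check and no test between groups was possible. Changes are differences of log2(FPKM + 0.1) between single libraries, and the verbs rose and fell are kept for changes of at least 2-fold on that scale. Intervals given beside changes are 95% exact (Clopper-Pearson) intervals of the log2 ratio from approximate read numbers, without a pseudocount. They cover counting error only and not the difference between cultures, and they widen where the reads come from a transcript shorter than the canonical one taken here.

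TET1, on chromosome 10 (hg19 chr10:70320413-70454239), read 0.129 FPKM in normoxic and 0.331 in hypoxic scrambled cells, against 0.0493 and 0.122 in TET1-si cells. It was lower in the TET1-si library in both oxygen states, by 2.63-fold in normoxia and 2.71-fold in hypoxia. These levels rest on about 28, 77, 11 and 26 reads.

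The family decides whether the outer membrane of the mitochondrion stays intact. The guardians BCL2, BCL-xL (from BCL2L1) and MCL1 hold the effectors BAX and BAK in check, and the effectors, once released, open pores through which cytochrome c reaches the cytosol and starts the caspases. BH3-only proteins carry stress signals to both: PUMA (BBC3) and NOXA (PMAIP1) are classical p53 targets, BIM (BCL2L11) and BMF answer to loss of growth factors, kinase signals and attachment, and BIK sits largely at the endoplasmic reticulum. Much of this control acts on proteins, which these data do not measure.

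Among the 9 members tested, those that changed most were the BH3-only genes BMF, BBC3 and BIK, which were higher under hypoxia, and the effector BAX, which was lower after TET1 knockdown. In scrambled cells 3 of the 9 members tested rose at least 2-fold under hypoxia (BBC3, BIK and BMF) and 0 fell, where 12.9% of all genes tested rose and 4.53% fell. In TET1-si cells 2 rose (BBC3 and BMF) and 0 fell, with 12.5% and 8.66% among all genes. After TET1-si under hypoxia 0 rose and 1 fell (BAX), with 12.0% and 8.35% among all genes. After TET1-si under normoxia 2 rose (BIK and BMF) and 1 fell (BAX), with 12.1% and 5.56% among all genes. The median change of the 9 members against that of all genes tested was 0.35 against 0.05, 0.08 against 0.03, -0.07 against 0.10 and 0.41 against 0.15 in the same order. These 4 contrasts share libraries in pairs and are not independent of each other.

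**Figure D1:**
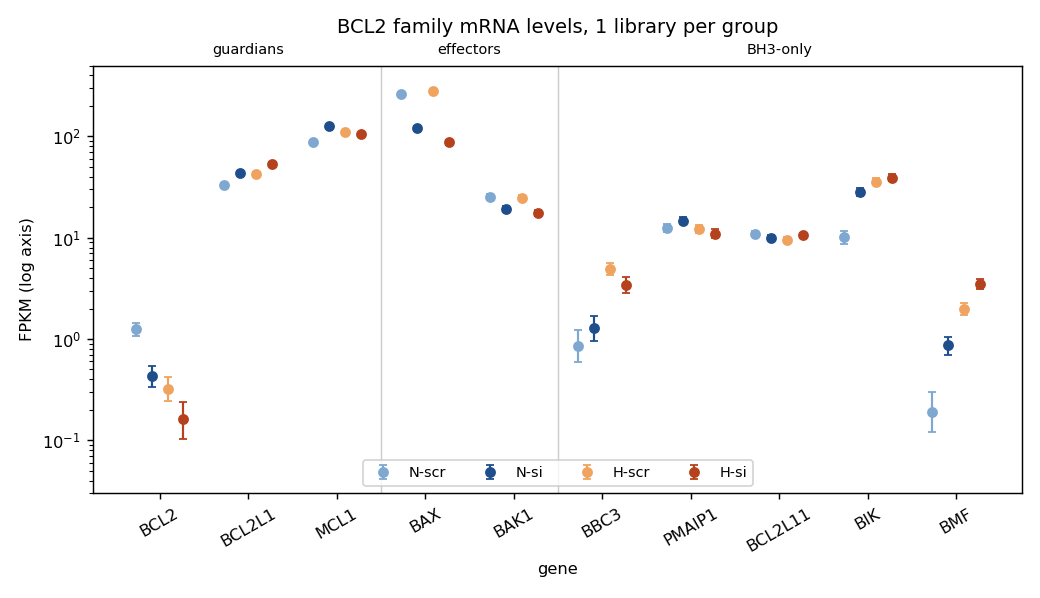
FPKM of the 10 members in each of the 4 libraries, on a log axis, with 1 point a library and bars for the 95% counting interval from approximate reads. BAX is lower in both TET1-si libraries (122 and 87.1 FPKM) than in both scrambled ones (261 and 281), while BMF and BBC3 are lowest in normoxia.

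MCL1, a short-lived guardian (chr1:150547032-150552066, minus strand, ENSG00000143384), was the most abundant guardian per length in every library. It read 87.3 FPKM in normoxic and 112 in hypoxic scrambled cells, against 127 and 106 in TET1-si cells. The N-scr library was the lowest and the N-si library the highest. Its hypoxia change was 0.35 in scrambled and -0.26 in TET1-si cells, and its TET1-si change was 0.54 in normoxia and -0.07 in hypoxia, all under 2-fold. The intervals of all 4 exclude 0, but that of -0.07 includes it with the length of the shortest coding transcript.

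BCL2L1 (chr20:30252255-30311792, minus strand, ENSG00000171552) read 33.0 FPKM in normoxic and 42.5 in hypoxic scrambled cells, against 43.9 and 53.5 in TET1-si cells. Hypoxia and TET1-si each went with a higher level in both states, by 1.22-fold to 1.33-fold, below the 2-fold limit. BCL2L1 transcripts for the guardian BCL-xL and the shorter, death-promoting BCL-xS share this gene-level value, as do the long and short forms of MCL1.

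BCL2, the founding member (chr18:60790579-60987361, minus strand, ENSG00000171791), was scarce: 1.25 FPKM in normoxic and 0.321 in hypoxic scrambled cells, against 0.434 and 0.163 in TET1-si cells, from about 190, 53, 70 and 24 reads. It was highest in N-scr and lowest in H-si. Its mean of 0.542 FPKM kept it out of the counts above. Its level was 3.90-fold lower under hypoxia in scrambled cells, with an interval of the log2 ratio from -2.42 to -1.51, and 2.67-fold lower under hypoxia in TET1-si cells, from -2.17 to -0.75. After TET1-si it was 2.88-fold lower in normoxia, from -1.95 to -1.13, and 1.98-fold lower in hypoxia. With the length of the shortest coding transcript all 4 of these intervals include 0. BCL2L1 exceeded BCL2 26.3-fold in N-scr and 329-fold in H-si.

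BAX (chr19:49458072-49465055, plus strand, ENSG00000087088) had the highest level of the family in both scrambled libraries. It read 261 FPKM in normoxic and 281 in hypoxic scrambled cells, against 122 and 87.1 in TET1-si cells, so both scrambled libraries lay above both TET1-si libraries. After TET1-si it fell by 1.69 on the log2 scale under hypoxia, or 3.22-fold, with an interval from -1.78 to -1.59. Under normoxia it fell by 1.10, or 2.15-fold, from -1.19 to -1.02. It stood at percentile 3.25 of all genes tested under hypoxia and 4.57 under normoxia. BAX was the 1 member that fell at least 2-fold after TET1-si in both oxygen states, which 3.06% of all genes tested did. In bulk RNA, fewer cells of a kind and less RNA per cell cannot be told apart. Hypoxia left it at a change of 0.11 in scrambled cells, where the sign turns to -0.01 under median-of-ratios scaling, and at -0.48 in TET1-si cells.

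BAK1 (chr6:33540329-33548019, minus strand, ENSG00000030110), which encodes the other effector, read 25.4 FPKM in normoxic and 24.8 in hypoxic scrambled cells, against 19.3 and 17.7 in TET1-si cells. It was lower after TET1-si too, by 1.31-fold in normoxia and 1.40-fold in hypoxia, under the 2-fold limit. The intervals of both hypoxia changes, -0.03 and -0.13, include 0, and their sign turns under another scaling. BAX exceeded BAK1 10.3-fold in N-scr, 11.3-fold in H-scr, 6.29-fold in N-si and 4.94-fold in H-si.

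The study asked of its hypoxia-induced, TET1-dependent genes that H-scr exceed H-si more than 2-fold, that H-scr exceed N-scr, and that N-scr be no lower than N-si. BAX alone of the 10 members met all 3 of these inequalities, which 3.84% of all genes tested met. The second of them rests on 281 against 261 FPKM, and under median-of-ratios scaling 0 members met the 3. BCL2 had a ratio of H-scr to H-si of 1.98 and was lower in H-scr than in N-scr.

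**Figure D2:**
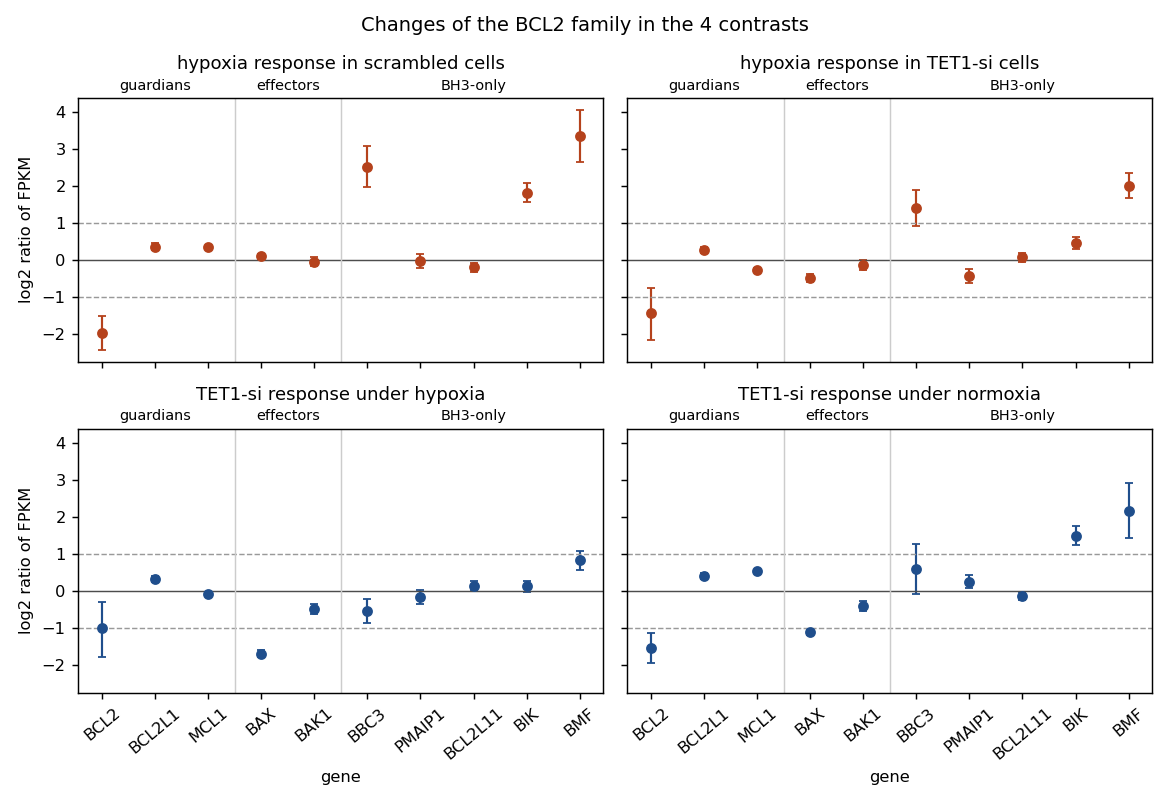
Log2 ratio of FPKM, without a pseudocount, of each member in the 4 contrasts between single libraries, by role, with lines for the 95% counting interval and broken lines at 2-fold. BMF, BBC3 and BIK lie past 2-fold upward in scrambled cells under hypoxia, BAX lies past 2-fold downward after TET1-si in both oxygen states, and the scarce BCL2 is low with wide intervals (ratios 1.98-fold to 3.90-fold lower).

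BMF, a BH3-only protein held at the cytoskeleton in attached cells (chr15:40380091-40401093, minus strand, ENSG00000104081), had the widest range of the family. It read 0.192 FPKM in normoxic and 1.97 in hypoxic scrambled cells, against 0.867 and 3.50 in TET1-si cells, from about 20, 217, 94 and 353 reads. The level was lowest with neither condition and highest with both. Under hypoxia it rose by 2.82 on the log2 scale in scrambled cells, a 10.2-fold ratio with an interval from 2.67 to 4.07, and by 1.90 in TET1-si cells, a 4.04-fold ratio. After TET1-si it rose by 1.73 in normoxia, a 4.51-fold ratio, and its change in hypoxia was 0.80, and with the length of the shortest coding transcript the intervals of both TET1-si changes include 0. BMF-AS1, a long non-coding RNA on the opposite strand of the same locus, read 0.176 and 1.48 FPKM in the normoxic and hypoxic scrambled libraries, with 1.15 and 2.52 in the TET1-si ones. The sources used here do not state strand, and without it reads of BMF and BMF-AS1 cannot be told apart where they overlap.

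BBC3, which encodes the strong BH3-only protein PUMA (chr19:47724081-47736023, minus strand, ENSG00000105327), read 0.848 FPKM in normoxic and 4.90 in hypoxic scrambled cells, against 1.29 and 3.41 in TET1-si cells. Both hypoxic libraries lay above both normoxic ones. It rose by 2.40 in scrambled cells, a 5.77-fold ratio with an interval from 1.97 to 3.10, and by 1.34 in TET1-si cells, a 2.65-fold ratio from 0.92 to 1.90. BBC3 and BMF were the 2 members that rose under hypoxia in both knockdown states, as 6.73% of all genes tested did. Its TET1-si change was 0.55 in normoxia, with an interval from -0.09 to 1.26, and -0.51 in hypoxia, from -0.86 to -0.20.

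BIK (chr22:43506754-43525718, plus strand, ENSG00000100290) was low in 1 library only: 10.1 FPKM in N-scr against 35.9 in H-scr, while the TET1-si libraries held 28.3 in normoxia and 39.2 in hypoxia. It rose under hypoxia in scrambled cells by 1.82, a 3.56-fold ratio with an interval from 1.59 to 2.09, and after TET1-si in normoxia by 1.48, a 2.82-fold ratio from 1.24 to 1.75. When the other condition was already present the changes were 0.47 and 0.13. The interval of the latter, from -0.03 to 0.29, includes 0, and its sign turns to -0.02 under median-of-ratios scaling. The difference of its hypoxia responses, TET1-si less scrambled, was -1.36, with an approximate interval from -1.66 to -1.07. Both of its 2-fold changes share the N-scr library.

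Over the 9 members tested the hypoxia response was lower in TET1-si than in scrambled cells for 8, all but BCL2L11, where 55.4% of all genes tested had a lower response. For BCL2L1 (-0.08) and BAK1 (-0.09) the approximate interval of the difference includes 0. BCL2, below the filter, went the other way at 0.66, with an approximate interval from -0.25 to 1.34. The difference was at least 2-fold lower for 2, BBC3 (-1.06) and BIK, or for 3 without a pseudocount (BMF, at -0.92 with it and -1.34 without), and at least 2-fold higher for 0, where 7.86% and 4.87% of all genes tested were so. The median difference was -0.58 for the members and -0.06 for all genes tested.

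PMAIP1, which encodes the MCL1-binding BH3-only protein NOXA (chr18:57567180-57571538, plus strand, ENSG00000141682), read 12.4 FPKM in normoxic and 12.2 in hypoxic scrambled cells, against 14.8 and 11.0 in TET1-si cells. BCL2L11, for BIM (chr2:111876955-111924587, plus strand, ENSG00000153094), read 10.9, 9.56, 10.0 and 10.6 FPKM in the same order, the narrowest range of the family at 0.19 on the log2 scale. The largest change of either was -0.42, that of PMAIP1 under hypoxia in TET1-si cells. MIR4435-2HG, a non-coding RNA that overlaps BCL2L11, was more abundant at 26.4 to 36.7 FPKM, so the value of BCL2L11 may hold reads of both.

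**Figure D3:**
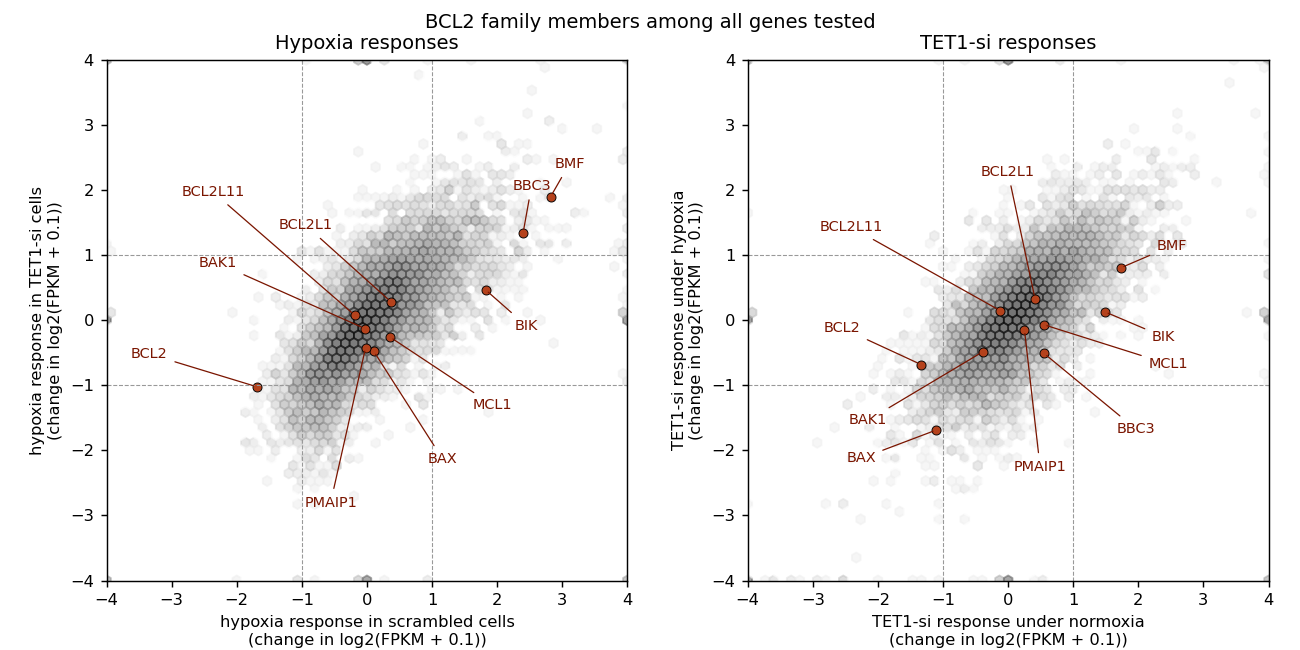
Changes of the 10 members (red points) over all genes tested (grey, darker where more genes fall), with hypoxia responses in the 2 knockdown states on the left and TET1-si responses in the 2 oxygen states on the right, all in log2(FPKM + 0.1). Genes beyond the axes are drawn at the frame, broken lines mark 2-fold, BMF and BBC3 lie past 2-fold upward on both axes at left, the scarce BCL2 lies past it downward on both (-1.68 and -1.03), and BAX lies below it on both at right.

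The order of the members by level differed between libraries, with the oxygen state as well as with the knockdown. In N-scr it ran BAX, MCL1, BCL2L1 and BAK1, then PMAIP1, BCL2L11 and BIK with overlapping counting intervals, then BCL2 and BBC3, which also overlapped, and BMF. In N-si MCL1 and BAX overlapped at the head, and in H-si MCL1 stood above BAX. BIK stood above BAK1 in all libraries but N-scr. BCL2 was the lowest member in N-si, H-scr and H-si, while BMF was the lowest in N-scr.

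Summed by role, the effectors held 64.7% of the FPKM of the 10 members in N-scr and 58.3% in H-scr, against 38.3% in N-si and 31.5% in H-si. The guardians held 27.5%, 29.4%, 46.7% and 48.1% in that order. The BH3-only genes held 7.78%, 12.3%, 15.0% and 20.4%. BAX alone went from 59.0% in N-scr to 26.2% in H-si and BIK from 2.28% to 11.8%. The summed FPKM of the 5 BH3-only members was 34.4 in N-scr and 55.3 to 67.7 in the other libraries. These shares and sums leave out family genes beyond the 10 and do not give the whole of a role. Among those left out, BCL2L2 read 39.0 to 41.9 FPKM, BID 26.2 to 40.7 and BAD 21.4 to 45.1. The ratio of BAX to MCL1 within a library, which no scaling between libraries can alter, came to 2.99 for N-scr and 2.52 for H-scr but 0.954 in N-si and 0.819 in H-si.

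**Figure D4:**
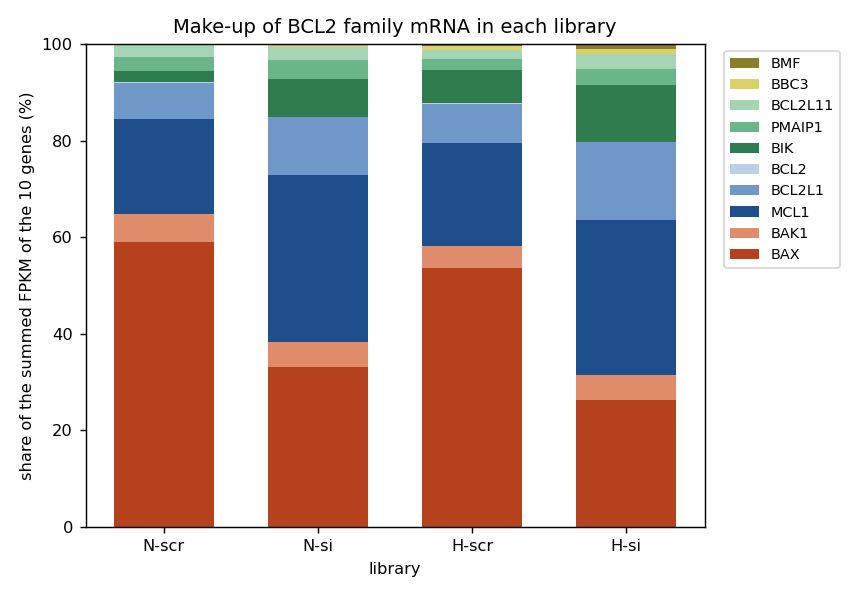
Share of the summed FPKM of the 10 members held by each gene in each library, in percent, with effectors in red, guardians in blue and BH3-only genes in green and yellow. The effectors BAX and BAK1 together hold 64.7% and 58.3% in the scrambled libraries and 38.3% and 31.5% in the TET1-si libraries.

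Promoter sequence is shown for the 3 of the 9 tested members whose change was at least 2-fold in the same direction in both states of a contrast, BAX, BBC3 and BMF. BCL2, below the filter, was also 2-fold lower under hypoxia in both knockdown states, and its windows hold none of the motifs searched. The windows come from RefSeq on GRCh38.p14, 250 bases before to 50 after each start, were placed on hg19 by exact match, and were found for 8 of the 10 members but not for MCL1 or BIK. Each is read 5′ to 3′ along the gene's strand, with CACGTG (the E-box, which contains ACGTG on both strands) or GCGTG in capitals. Bases ACGTG and GCGTG are the core of the hypoxia response element.
BAX, chr19:49457982-49458071, plus strand: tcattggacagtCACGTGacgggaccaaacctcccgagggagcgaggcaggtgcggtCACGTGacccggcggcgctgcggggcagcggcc
BBC3, chr19:47736115-47736174, minus strand: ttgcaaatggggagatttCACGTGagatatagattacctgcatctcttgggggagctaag
BMF, chr15:40401111-40401170, minus strand: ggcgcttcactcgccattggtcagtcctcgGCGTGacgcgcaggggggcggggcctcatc

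The BAX window holds 4 CACGTG in all, of which 2 are in the stretch shown, and also ACGTG outside them. Of 35116 windows, 7.26% hold at least 1 CACGTG and 5 windows, or 0.0142%, hold 4 or more. The limit of 4 is the number found in the BAX window itself. The BBC3 window holds 1 CACGTG. On either strand, 21.4% of all windows hold ACGTG, 36.5% GCGTG and 48.4% at least 1 of them. BMF has GCGTG in 1 of its 2 windows. GCGTG was also found in windows of BCL2L1, PMAIP1 and BCL2L11, whose changes stayed under 2-fold, and neither motif in those of BCL2 and BAK1. BAX, whose window holds ACGTG, had hypoxia changes under 2-fold, 0.11 in scrambled and -0.48 in TET1-si cells. GTAAACA, a forkhead motif, was found in the BCL2L11 window and in 3.42% of all windows. A match is a description of the letters and not of binding.

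The changes of BAX, BIK and BMF were set beside those of the 50 nearest protein-coding genes tested, 25 on each side. After TET1-si 2 of the 50 neighbours of BAX lay lower than BAX under hypoxia and 2 under normoxia, and the neighbours' median change was -0.12 and -0.01. Of the 50 neighbours of BMF, 50 lay below it in the hypoxia response of scrambled cells and 49 in the TET1-si response under normoxia. For BIK 48 of 50 lay below it in the latter. Among all genes tested, 98.4% and 95.8% lay below BMF in the same contrasts, and 94.1% below BIK. Below BAX lay 3.25% of all genes after TET1-si under hypoxia and 4.57% under normoxia. The comparison was made after earlier results were seen, so its counts largely restate these ranks and single out no locus.

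**Figure D5:**
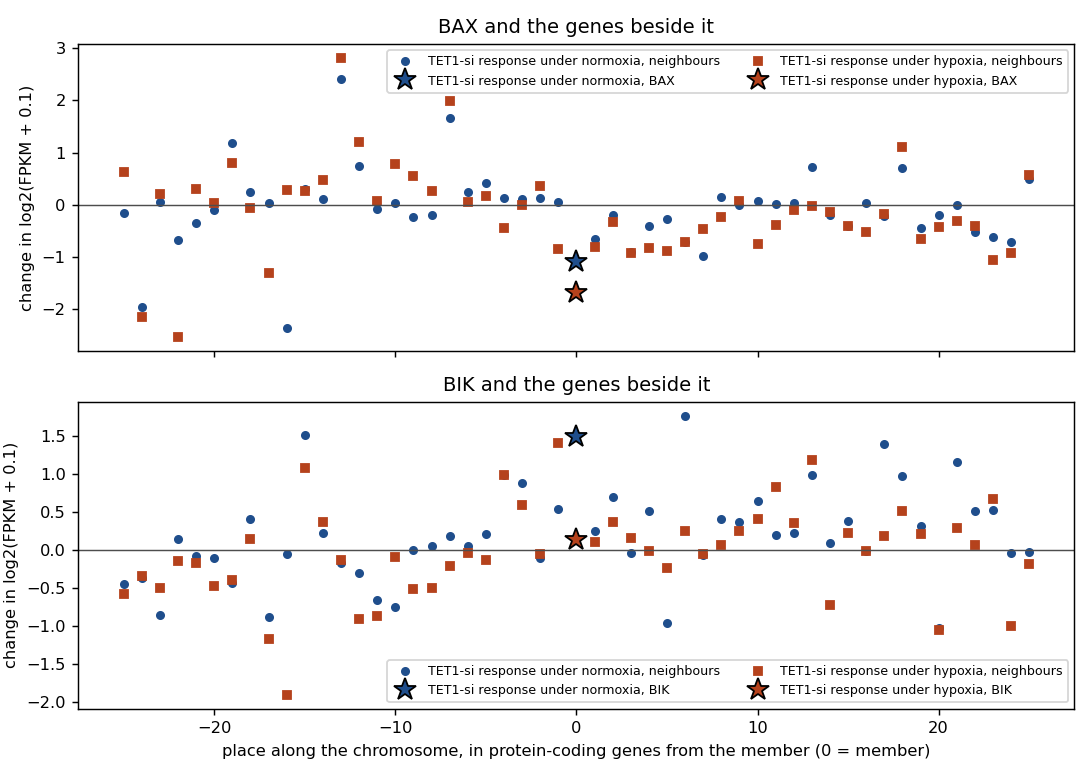
TET1-si changes in log2(FPKM + 0.1), under normoxia (blue) and hypoxia (red), of BAX and BIK (stars) and of the 25 protein-coding genes tested on each side, placed by gene rank along the chromosome. For BAX 2 of the 50 neighbours lie lower than it in each oxygen state, and for BIK 48 of 50 lie below it under normoxia. Among all genes tested 3.25% (hypoxia) and 4.57% (normoxia) lie below BAX, and 94.1% below BIK under normoxia.

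Other genes of the pathway are given from lists. Of 13 further family genes 8 were tested. BNIP3 and BNIP3L are mitophagy receptors, BH3-like proteins and known hypoxia targets. They were the 2 that rose under hypoxia in both knockdown states, as 6.73% of all genes tested did. BNIP3 read 11.5 FPKM in normoxic and 69.2 in hypoxic scrambled cells, against 25 and 70.1 in TET1-si cells. BNIP3L read 20.7 and 101 in the scrambled and 26.3 and 71.2 in the TET1-si libraries. BNIP3 shared with BIK a lowest level in N-scr and similar levels in both hypoxic libraries. Among these 8 genes 1 rose after TET1-si in normoxia (BNIP3, by 1.11), against 12.1% of all genes tested. After TET1-si in hypoxia 1 fell (BCL2L12, at -1.07, named after its values were seen), against 8.35%. Under hypoxia 1 of the 8 fell in TET1-si cells (BCL2L12, at -1.23), against 8.66% of all genes. In scrambled cells 0 fell under hypoxia, against 4.53%. BAD, a BH3-only protein, had TET1-si changes of 0.90 and 0.81.

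Downstream of the pore, all 15 genes of the apoptosome and caspase list were tested. CYCS, which encodes cytochrome c, read 259 FPKM in normoxic and 132 in hypoxic scrambled cells, against 142 and 34.5 in TET1-si cells. It fell by 1.93 after TET1-si under hypoxia and had a change of -0.87 in normoxia. Under hypoxia it fell by 2.03 in TET1-si cells and had a change of -0.98 in scrambled cells. CYCS was the 1 gene of the list that fell after TET1-si under hypoxia, as 8.35% of all genes tested did. After TET1-si 0 genes of the list rose, against 12.0% of all genes in hypoxia and 12.1% in normoxia. DFFA, the inhibitor of the apoptotic nuclease, fell by 1.46 and 1.09 under hypoxia in scrambled and TET1-si cells. In all, 1 gene of the list fell under hypoxia in scrambled cells (DFFA), against 4.53% of all genes. In TET1-si cells 2 fell (DFFA and CYCS), against 8.66%. The list had 0 genes that rose under hypoxia, against 12.9% in scrambled and 12.5% in TET1-si cells. Of 6 inhibitors of apoptosis tested, 0 changed 2-fold under hypoxia in scrambled cells, where 12.9% of all genes rose and 4.53% fell. In TET1-si cells 1 rose and 1 fell, against 12.5% and 8.66% of all genes: BIRC5 (survivin, a gene of dividing cells) fell by 2.23, and NAIP, a low gene named after its values were seen, rose by 1.18. BIRC2 had TET1-si changes of 0.74 in normoxia and 0.66 in hypoxia. Of 8 death receptor genes tested 1 rose in TET1-si cells under hypoxia, where 12.5% of all genes tested rose. This was TNFSF10 (the ligand TRAIL), by 1.66.

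All 6 epithelial markers were expressed in every library, with a summed level of 5905 FPKM in normoxic and 7314 in hypoxic scrambled cells, against 1824 and 2726 in TET1-si cells. KRT5, KRT8 and KRT18 fell at least 2-fold after TET1-si in both oxygen states, as BAX did, and make up most of these sums. The other 3 markers, named after their values were seen, did not fall 2-fold: EPCAM had changes of 0.41 in normoxia and 0.68 in hypoxia, CDH1 of 0.57 and 0.45, and TP63 of -0.27 and -0.04. Of 6 markers of other cell types measured, 2 or 3 were above 0 in a library, with summed levels of 14.0 and 44.7 FPKM in the normoxic and hypoxic scrambled libraries, with 35.7 and 82.5 in the TET1-si ones. These were mainly COL1A1, at 5.29 to 37.0 FPKM, and CDH5, at 8.75 to 45.5, while the leukocyte marker PTPRC was at or near 0. The part of these shifts in the results above was not tested.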

How the data were processed

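The deposited values, 1 column a library, were FPKM per gene that the authors made with TopHat and Cufflinks on hg19 with Ensembl genes from TruSeq mRNA libraries. Versions are not given in the sources used here. The labels call the reads single end and the methods paired end. A total of 232 rows with 111 duplicated gene identifiers, HIF1A among them, were left out of comparisons across genes. Depth was recovered from 5210 single-exon genes, whose low FPKM were whole reads within 0.05 for 97.3% to 98.0% of values, and reads were approximated with the canonical transcript length. The recovery was tested on simulated data. Level intervals were exact Poisson ones and those of a difference of responses were approximate (Wald). Gene coordinates are from the files and annotation, all hg19.

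Changes used a pseudocount of 0.1 FPKM, a filter of mean FPKM of at least 1 and a 2-fold limit. FPKM are not counts, each group had 1 library, and so no p-value is given. The 10 members and the lists were chosen with earlier results of these data known, and the neighbour comparison after seeing them. From each list were named, among genes with a mean of at least 5 FPKM, up to 3 genes changed 2-fold the same way in both states of a response, otherwise the 1 with the largest mean change over both states. BNIP3 and BNIP3L were always named, and for the member of widest range among those with a mean of at least 5 FPKM the 3 protein-coding genes nearest in profile. Alternatives were other scalings, pseudocounts, filters and limits. Python 3.11.15, pandas 2.3.3, NumPy 2.4.6, SciPy 1.17.1 and matplotlib 3.10.9 were used.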

Additional observations from a re-analysis of the deposited data

Results flagged for a closer look

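For 5 members the change had opposite signs in the 2 states of the other condition. With 1 library a group the difference was not tested. The differences of the hypoxia responses, TET1-si less scrambled, were -0.61 for MCL1 (hypoxia 0.35 and -0.26, TET1-si 0.54 in normoxia and -0.07 in hypoxia), -0.58 for BAX (hypoxia 0.11 and -0.48), -1.06 for BBC3 (TET1-si 0.55 and -0.51), -0.40 for PMAIP1 (TET1-si 0.25 and -0.15) and 0.27 for BCL2L11 (hypoxia -0.19 and 0.08, TET1-si -0.12 and 0.15). The counting intervals of both changes exclude 0 for both pairs of MCL1, for the pair of BAX and for the TET1-si pair of BCL2L11. With the length of the shortest coding transcript this holds for the hypoxia pair of MCL1 only. The sign of the hypoxia change in scrambled cells turns under another scaling for BAX and PMAIP1, and that in TET1-si cells for BCL2L11.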

How the results depend on the processing

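No change between single libraries that was called at 2-fold turned its direction under another scaling, pseudocount or filter. Without the filter on low values BCL2 entered, and the members lower at least 2-fold became 1 in either hypoxia response and 2 after TET1-si in normoxia. A mean of at least 5 FPKM left, for hypoxia, 1 member higher in scrambled and 0 in TET1-si cells, 1 after TET1-si in normoxia, and 1 with a lower difference of responses, since BBC3 and BMF no longer entered. A pseudocount of 1 left 1 member higher under hypoxia in TET1-si cells, 1 after TET1-si in normoxia and 1 with a lower difference, and moved the difference of BMF from -0.92 to -0.04, while no pseudocount gave 3 with a lower difference. A limit of 1.5-fold gave 1 member higher after TET1-si in hypoxia and 4 with a lower difference. Median-of-ratios scaling left 0 members that met the study's 3 inequalities. It moved the median change of all genes after TET1-si in normoxia from 0.15 to -0.00, and TPM moved it to 0.20. Leaving out a replicate was impossible with 1 library a group. With the shortest coding transcript the members whose counting interval excludes 0 went from 8 to 5 and from 8 to 7 for hypoxia in scrambled and TET1-si cells, and after TET1-si from 8 to 4 in hypoxia and from 9 to 6 in normoxia. No paired analysis was possible because the groups share only 1 replicate number and no result comes from a test. Depth limits BCL2 and TET1 throughout, on about 24 to 190 and 11 to 77 reads. It also limits BMF and BBC3 in N-scr, on about 20 and 32 reads.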

Other observations

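Genes that act on the family from outside it were read from 3 further lists. Of 18 targets of the p53 network tested, 4 rose and 1 fell under hypoxia in scrambled cells, 3 rose and 1 fell in TET1-si cells, 1 rose and 1 fell after TET1-si in hypoxia, and 3 rose and 1 fell after TET1-si in normoxia. Among all genes tested the shares that rose and fell were 12.9% and 4.53%, 12.5% and 8.66%, 12.0% and 8.35%, and 12.1% and 5.56% in the same contrasts. CDKN1A, the cell cycle inhibitor p21, rose under hypoxia by 1.62 in scrambled and 1.00 in TET1-si cells, and TP53I3 by 1.84 and 1.36. RRM2B, a ribonucleotide reductase subunit, rose after TET1-si by 1.74 in normoxia and 1.75 in hypoxia, reading 25.9 FPKM in normoxic and 36.9 in hypoxic scrambled cells, against 86.4 and 124 in TET1-si cells. AEN, an apoptosis-enhancing nuclease, fell in all 4 contrasts, from 44.5 FPKM in N-scr to 18.5 with TET1-si alone, 18.8 with hypoxia alone and 3.49 with both.

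Of 13 transcription factors tested that act on BH3-only genes, EPAS1, which encodes HIF-2α, rose after TET1-si by 1.01 in normoxia and 1.52 in hypoxia, and E2F1 fell by 2.03 under hypoxia in TET1-si cells, with a change of -0.44 in scrambled cells. A list of 18 genes tested held kinases, ligases and deubiquitinases that act on family proteins. It also held DYNLL1 and genes of the YWHA and VDAC families. Of the list, TRIM17, a ligase that acts on MCL1, rose after TET1-si by 2.30 in normoxia and 2.60 in hypoxia. TRIM17 read 15.4 FPKM in normoxic and 19.5 in hypoxic scrambled cells, against 76.0 and 119 in TET1-si cells. CDK1 fell by 2.03 under hypoxia in TET1-si cells, with a change of -0.81 in scrambled cells.

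The genes whose profile over the 4 libraries lay nearest to that of BIK, among 9465 protein-coding genes, were RASGRF1, RP11-34P13.16 and SH3D21, at Euclidean distances of 0.143, 0.186 and 0.194 in centred log2 values. RASGRF1 read 1.92 and 6.59 FPKM in the normoxic and hypoxic scrambled libraries, with 4.86 and 6.92 in the TET1-si ones. With 4 points many profiles lie close together.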
